A study of Mus musculus with 2 samples.

Results

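The 8 genes described here belong to the reelin pathway or mark Cajal-Retzius neurons, and were taken by symbol from an RNA sequencing table that lists 19720 genes of the embryonic mouse forebrain. All 8 were found in the table: the ligand Reln, the receptors Vldlr and Lrp8, the adaptor Dab1, and the Cajal-Retzius markers Trp73, Calb2, Ebf2 and Ebf3. The study compared 1 library of H2AZfl/fl mice (titled WT and called the control here) with 1 library of H2AZcKO mice (called the cKO), both on the C57BL/6 strain. The floxed gene encodes H2A.Z, a histone H2A variant, so the control also carries the floxed alleles, and the sources used here do not state the Cre driver of the cKO. The tissue is labelled telencephalic, while the extraction text names cerebral cortex, and the age is embryonic day 16 in the titles but day 12 in the stage field. Triplicates are mentioned in the design text, but the table holds 1 count column per genotype, and the sources used here do not state whether animals or libraries were pooled.

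Reelin is a large glycoprotein secreted by Cajal-Retzius neurons, the early-born cells of the marginal zone just under the meninges. It binds the lipoprotein receptors Vldlr and Lrp8 (also known as ApoER2) on migrating neurons and radial glia. Src family kinases then phosphorylate the adaptor Dab1 inside the cell, which guides the inside-out layering of the cortex. Cajal-Retzius neurons arise from the cortical hem, the septum, the ventral pallium and neighbouring sources, and those of the hem and septum express the p53 relative Trp73. Reln is not exclusive to these cells, since some cortical interneurons also express it.

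The libraries held 8474545 reads in genes (control) and 9028523 (cKO). H2afz, the H2A.Z gene named in the cKO title, had 1152 reads in the control and 535 in the cKO, 2.24-fold lower. With 1 library per genotype there is no replicate check and no test: each difference is between 2 libraries, not between genotypes. Intervals are exact 95% Clopper-Pearson intervals on how a gene's reads split between the libraries and cover counting error only, and a gene whose interval excludes a ratio of 1 is called beyond counting error. Ratios are cKO over control after scaling with the trimmed mean of M-values (TMM), and a gene counts as measured from 20 reads upward over the pair of libraries (14366 genes). A gene with more reads is called beyond counting error at a smaller ratio, and shares of all measured genes are not matched for depth. All 10 dorsal cortex markers were measured, among them Neurod6, Neurod2 and Tbr1, transcription factor genes of cortical glutamatergic neurons, with 6390, 5034 and 4575 control reads, and 0 of 10 were at least 1.5-fold apart, beside 8.95% of all measured genes. Beyond counting error 3 of the 10 were higher and 5 lower, beside 12.5% and 9.3%, with log2 ratios from -0.25 to 0.18. Under scaling by DESeq2 size factors, 5 of the 10 were beyond counting error in either direction. In bulk tissue, fewer cells of a type and less RNA per cell cannot be told apart.

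Trp73 and Ebf3, markers whose difference was beyond counting error, are shown by the 250 bases before their starts in RefSeq (GRCm38.p6), with each CG, which reads the same on both strands, in capitals. Trp73 is shown at both of its starts, since its read count sums transcripts from both. The upstream start gives the full-length form with the transactivation domain (TAp73), and the internal one gives the form without it (deltaNp73), which is the main form known in Cajal-Retzius neurons. The upstream window is chr4:154139876-154140125, the internal window is chr4:154097174-154097423 and the Ebf3 window is chr7:137314446-137314695, all on the minus strand and printed 5′ to 3′.
Trp73 upstream start: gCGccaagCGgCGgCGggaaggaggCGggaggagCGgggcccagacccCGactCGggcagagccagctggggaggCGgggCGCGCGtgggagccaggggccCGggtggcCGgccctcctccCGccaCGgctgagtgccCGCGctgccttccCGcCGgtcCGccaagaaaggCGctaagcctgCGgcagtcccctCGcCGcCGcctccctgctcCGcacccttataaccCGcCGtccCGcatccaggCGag
Trp73 internal start: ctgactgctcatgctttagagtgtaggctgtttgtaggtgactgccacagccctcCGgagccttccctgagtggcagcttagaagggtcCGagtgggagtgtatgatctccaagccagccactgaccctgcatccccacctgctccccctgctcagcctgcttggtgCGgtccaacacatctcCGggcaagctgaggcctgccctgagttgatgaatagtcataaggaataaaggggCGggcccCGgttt
Ebf3 start: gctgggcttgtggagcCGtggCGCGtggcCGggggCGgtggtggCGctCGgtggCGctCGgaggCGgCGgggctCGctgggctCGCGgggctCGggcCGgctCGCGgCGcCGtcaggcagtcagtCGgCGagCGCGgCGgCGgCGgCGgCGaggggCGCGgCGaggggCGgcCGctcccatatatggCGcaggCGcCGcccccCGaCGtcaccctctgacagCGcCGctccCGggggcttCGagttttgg
The upstream Trp73 window held 31 CG, a number that 5.19% of the 32851 windows of this length reached, and the internal one held 6, which 50.4% reached. The Ebf3 window held 43 CG, which 0.712% reached. A CG was found in 92.1% of all windows, with a median of 6. The starts of Trp73 lie 42702 bases apart, at 154139875 and 154097173, and the deposited gene count does not separate their transcripts. Windows were found for 6 of the 8 genes, and Ebf2 and Calb2 had no entry.

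Levels of the 8 genes differed widely, in the same order in both libraries. Per kilobase of merged exon (GENCODE M21), the control levels in TMM-scaled CPM (reads scaled to the size of the library) were 44.1 for Lrp8, 32.0 for Dab1, 23.5 for Reln, 15.9 for Calb2, 8.14 for Vldlr, 6.24 for Trp73, 3.12 for Ebf3 and 0.841 for Ebf2. The cKO levels on this scale were 42.7, 30.8, 23.5, 17.8, 8.69, 4.70, 4.43 and 1.31 in that order of genes. Lrp8 stood above 93.5% of measured genes in the control and Ebf2 above 10.9%. Neighbours in this order were separated beyond counting error in the control, whereas in the cKO the intervals of Trp73 (4.11 to 5.35) and Ebf3 (3.99 to 4.91) overlapped. Lrp8 was 5.42-fold above Vldlr per kilobase in the control and 4.92-fold in the cKO, so it was the more abundant receptor transcript in both.

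**Figure D1:**
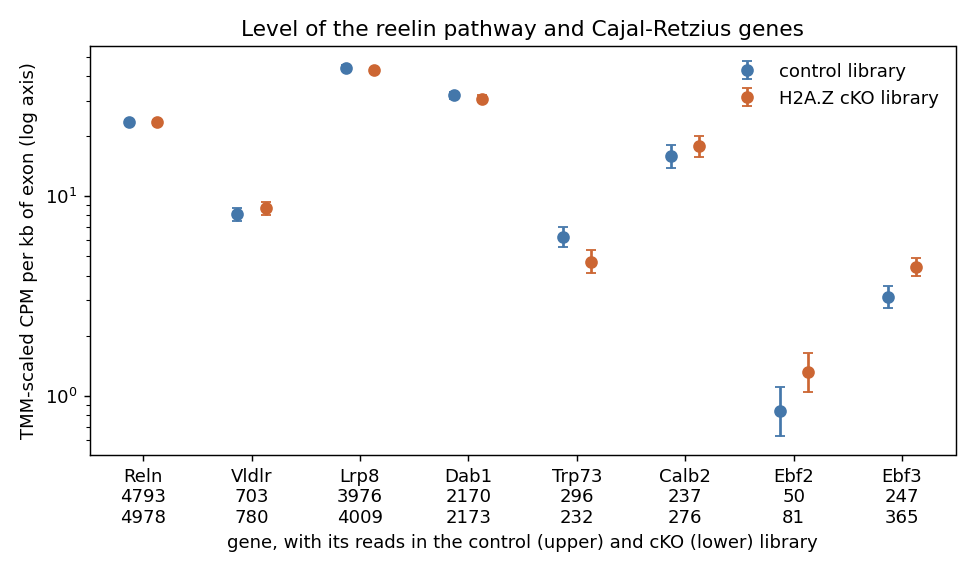
Level of each gene (TMM-scaled CPM per kilobase of exon, log axis) in the control and cKO library, with exact 95% Poisson intervals that cover counting error only and the read counts under each name. Reln has 23.5 in both libraries, Trp73 is lower in the cKO (4.70 against 6.24), and Ebf2 and Ebf3 are higher.

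Reln, the ligand, was level between the libraries. It lies on chromosome 5 from 21884454 to 22344702 on the minus strand (ENSMUSG00000042453), and had 4793 reads in the control and 4978 in the cKO. Its log2 ratio was -0.0019 (-0.06 to 0.06), so at this depth a difference above 1.04-fold either way lies outside the counting interval. The sign turned with the scaling, from -0.04 by library total to 0.02 by DESeq2 size factors.

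Both receptors were near level. Lrp8 (chromosome 4, 107802261 to 107876840, plus strand, ENSMUSG00000028613) had 3976 control and 4009 cKO reads, which put its log2 ratio at -0.04 (-0.11 to 0.02). Vldlr (chromosome 19, 27216484 to 27254231, plus strand, ENSMUSG00000024924) had 703 in the control and 780 in the cKO, with its log2 ratio at 0.09 (-0.06 to 0.24). Neither receptor differed beyond counting error, and their intervals exclude a difference above 1.08-fold lower for Lrp8 and 1.18-fold higher for Vldlr.

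Dab1, the adaptor that docks on the tails of both receptors, had 2170 and 2173 reads. It spans 103619359 to 104744844 on the plus strand of chromosome 4 (ENSMUSG00000028519), and its log2 ratio was -0.05 (-0.14 to 0.03). The cKO library therefore held nearly the same raw count of Dab1 reads as the control in a slightly larger total. Scaled by library total, Lrp8 and Dab1 were lower beyond counting error, at -0.08 and -0.09, which made 5 of the 8 genes beyond counting error, beside 21.4% of all measured genes under that scaling.

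Among the 4 Cajal-Retzius markers, 1 was lower in the cKO and 2 were higher beyond counting error, beside 9.3% and 12.5% of all measured genes, and 1 was not separated. Trp73, the p53 family transcription factor needed for Cajal-Retzius cell survival and for multiciliated cells, lies on chromosome 4 from 154056253 to 154140208 on the minus strand (ENSMUSG00000029026). It had 296 reads in the control and 232 in the cKO, 1.33-fold lower (1.11 to 1.58) or -0.41 (-0.66 to -0.16) on the log2 scale. Of all measured genes, 9.15% had a lower ratio.

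Ebf3 and Ebf2, helix-loop-helix transcription factor genes of the early B cell factor family, were higher in the cKO. Ebf3 (chromosome 7, 137193673 to 137314445, minus strand, ENSMUSG00000010476) had 247 control and 365 cKO reads, 1.42-fold higher (1.21 to 1.68) or 0.51 (0.27 to 0.75) on the log2 scale. Ebf2 (chromosome 14, 67233292 to 67430918, plus strand, ENSMUSG00000022053) had 50 control and 81 cKO reads, 1.55-fold higher (1.08 to 2.26) or 0.63 (0.11 to 1.18) on the log2 scale. It was the single member at least 1.5-fold apart and the one with the fewest reads, so its interval is the widest.

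Calb2 encodes calretinin, a calcium-binding protein of Cajal-Retzius cells, some interneurons and thalamic neurons. The gene lies on chromosome 8 from 110142539 to 110168206 on the minus strand (ENSMUSG00000003657). The control held 237 of its reads and the cKO 276. On the log2 scale the ratio was 0.16 (-0.09 to 0.42), and a difference was not detectable at this depth.

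**Figure D2:**
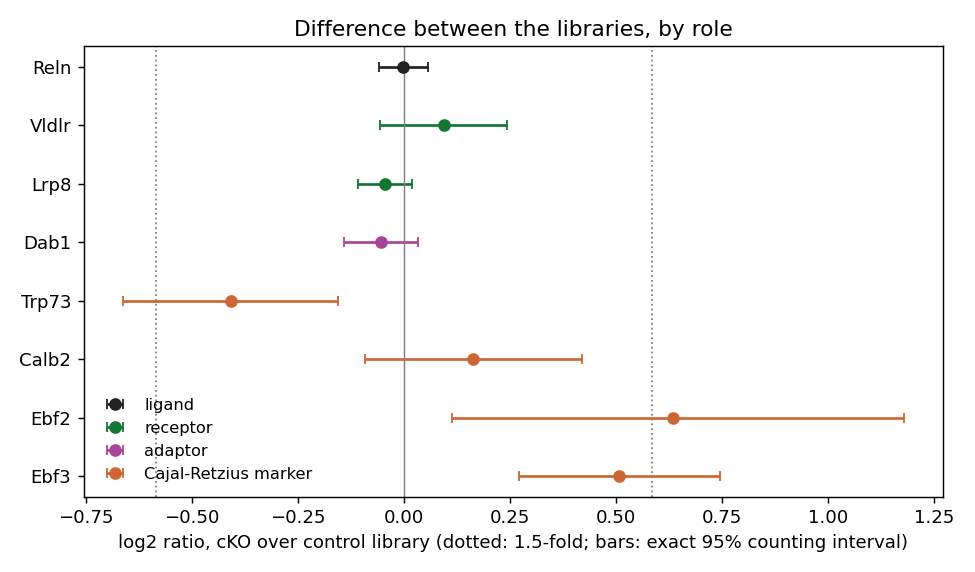
Log2 ratio of cKO over control for each gene, coloured by role, with exact 95% counting intervals and dotted lines at 1.5-fold. The ligand, receptors and adaptor lie between -0.05 and 0.09, whereas the markers run from -0.41 for Trp73 to 0.63 for Ebf2.

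Counted together, most of the 8 genes were close to level. At least 1.5-fold apart was 1 of 8, beside 8.95% of all measured genes, 0 of 8 were 2-fold apart, beside 2.97%, and beyond counting error were 3 of 8, beside 21.8%. Their median log2 ratio was 0.05, with 4 above and 4 below 0, and the median of all measured genes was 0.0018. In the authors' deposited table, whose test the sources used here do not state, adjusted p-values were 0.0093 for Trp73 and 0.0018 for Ebf3, the other 6 were above 0.05, and 0 of 8 were marked significant. Of all 19720 genes listed, 1464 had an adjusted p-value under 0.05 and 318 were marked significant.

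**Figure D3:**
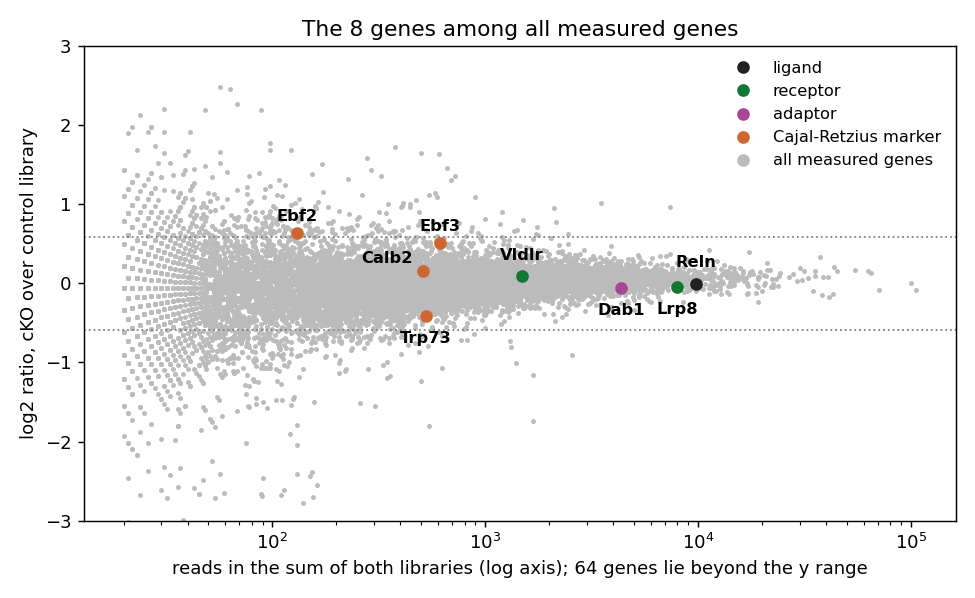
Log2 ratio of cKO over control against reads in both libraries (log axis) for measured genes (grey) and the 8 genes (coloured by role), with dotted lines at 1.5-fold and 64 genes beyond the y range. Ebf2, with 131 reads in all, lies above the upper line, and Reln, with 9771, sits at 0.

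Ratios between genes within a library do not depend on how the libraries are scaled, and they separated Trp73 from the other markers. For every 1000 Reln reads there were 61.8 Trp73 reads in the control and 46.6 in the cKO, a ratio of 0.755 (0.630 to 0.903). Ebf3 had 51.5 and 73.3 reads per 1000 Reln reads, a ratio of 1.42 (1.20 to 1.69), and Ebf2 had 10.4 and 16.3, a ratio of 1.56 (1.08 to 2.27). The control thus held fewer Ebf3 than Trp73 reads and the cKO more.

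Ebf3 relative to Trp73 differed 1.89-fold between the libraries (1.48 to 2.40), and Calb2 relative to Trp73 differed 1.49-fold (1.16 to 1.91). Ebf2 relative to Trp73 differed 2.07-fold (1.37 to 3.13). The ratio of Ebf2 to Ebf3, by contrast, was not separated, at 1.10 (0.732 to 1.65). Nor were Ebf3 and Ebf2 relative to Calb2, at 1.27 (0.994 to 1.62) and 1.39 (0.923 to 2.11). Lrp8, Dab1 and Vldlr per Reln read had ratios of 0.971 (0.915 to 1.03), 0.964 (0.897 to 1.04) and 1.07 (0.956 to 1.19), each interval holding 1. The markers therefore did not share 1 common shift between these libraries.

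**Figure D4:**
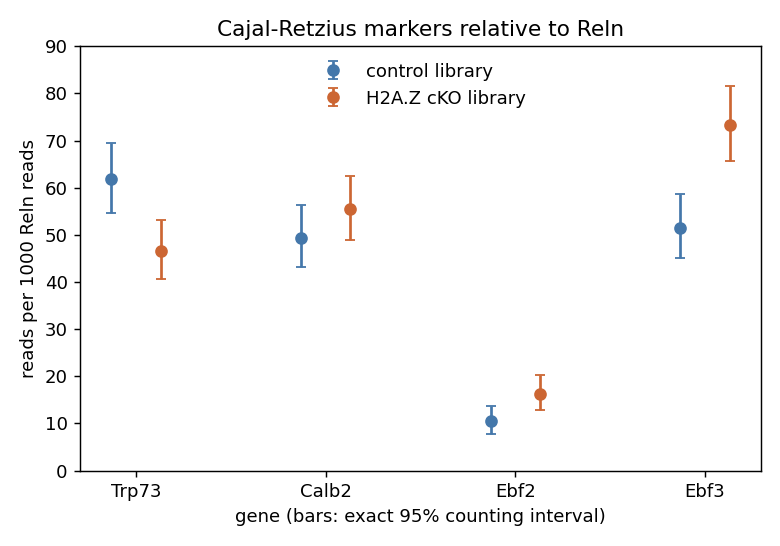
Reads of each Cajal-Retzius marker per 1000 Reln reads in the control and cKO library, with exact 95% counting intervals. Trp73 goes from 61.8 in the control to 46.6 in the cKO, Ebf3 from 51.5 to 73.3 and Ebf2 from 10.4 to 16.3, and the Calb2 intervals overlap.

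Counts of near-identical or overlapping genes could blur these values, so 50-base windows of each gene's transcripts were looked up in all other GENCODE M21 transcripts. Ebf2 and Ebf3 shared 4.82% and 2.26% of their windows, in each case with an antisense gene (Gm10860 and Gm45278) and none with another Ebf gene. Trp73 shared 4.12% with its antisense gene Trp73os. Without a stated strand setting, reads of those stretches cannot be assigned to a strand. Reln, Lrp8 and Dab1 shared under 1% of their windows, and Vldlr and Calb2 shared 0. The table also lists Gm16111, a pseudogene inside Reln with 24 and 16 reads, and Lrp8os2, antisense to Lrp8 with 8 and 10 reads.

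Ebf1, the family member known from the striatum and from pericytes as well as from Cajal-Retzius cells, was further apart than Ebf2 and Ebf3. It had 192 reads in the control and 497 in the cKO, 2.49-fold higher (2.10 to 2.96). Ebf4 went the other way, with 198 control and 166 cKO reads, at -0.31 (-0.62 to -0.0059) on the log2 scale, and its interval held 0 under scaling by DESeq2 size factors. Ebf1 made up 27.9% (24.6 to 31.5) of the reads of the 4 Ebf genes in the control and 44.8% (41.9 to 47.8) in the cKO, by exact Clopper-Pearson intervals. The share of Ebf2 was 7.28% and 7.30%.

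Beside the higher Ebf genes, most interneuron markers and most thalamic and diencephalic markers were also higher in the cKO. Of 15 measured interneuron markers, 10 were higher beyond counting error and 0 lower, beside 12.5% and 9.3% of all measured genes, and the other 5 were not separated. Those 5, named after their values were seen, were Sst, Sp8, Prox1, Htr3a and Maf. Their log2 ratios were 0.04, 0.24, -0.03, -0.16 and -0.07 in that order. The summed level of the 15 was 908 CPM in the control and 1198 in the cKO. Among the higher ones Gad2, a GABA-synthesising enzyme gene, had 773 and 1376 reads, Dlx6 had 67 and 210, and Dlx1 and Dlx2 had log2 ratios of 0.36 and 0.49. Of 9 measured thalamic and diencephalic markers, 8 were at least 1.5-fold higher, beside 3.52% of all measured genes. Their summed level over all 10 was 62.1 CPM in the control and 197 in the cKO, with Shox2 among those at 0 reads in the control. Tcf7l2, a transcription factor gene of the thalamus, went from 12.9 CPM in the control to 114 in the cKO and made up most of the gain, whereas Lhx9, at 42.3 CPM in both, made up most of the control sum. The part of these cells in the values of Reln, Ebf1, Ebf2, Ebf3 and Calb2 was not tested.

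The 16 other genes of Cajal-Retzius cells and their positioning had no common direction. Higher beyond counting error were 5 of 16 and lower 3, beside 12.5% and 9.3% of all measured genes, with a median log2 ratio of 0.04. Besides Ebf1, the higher ones were Zic1, a zinc finger gene of hem and septum, at 0.25 (0.13 to 0.37), and Lhx1, Cacna2d2 and Car10 at 0.48, 0.27 and 0.43. Nhlh2, a helix-loop-helix gene, was lower at -0.28 (-0.47 to -0.08), as was Tbr1 at -0.08 (-0.14 to -0.02), a call lost under scaling by DESeq2 size factors. Lhx1, Cacna2d2, Car10 and Nhlh2 are named after their values were seen. Bhlhe22, with 1514 and 1515 reads, was at -0.06 (-0.16 to 0.05).

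The chemokine gene Cxcl12 was the lowest of these 16. Meningeal cells secrete it, and it holds Cajal-Retzius cells at the surface through the receptors Cxcr4 and Ackr3. It had 418 and 207 reads, 2.10-fold lower (1.77 to 2.49). Its receptor genes, named after their values were seen, had log2 ratios of 0.07 (-0.16 to 0.29) and 0.02 (-0.21 to 0.25), neither beyond counting error. The 10 meningeal markers, led by the collagen genes Col3a1, Col1a2 and Col1a1, summed to 254 CPM in the control and 22.6 in the cKO, 9 of 10 at least 1.5-fold lower, beside 5.43% of all measured genes, and 0 of 10 at 0 reads. Beyond counting error 8 of 10 were lower, beside 9.3%. The part of meningeal cells in the value of Cxcl12 was not tested.

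Genes of the cortical hem, a main source of Trp73-positive Cajal-Retzius cells, were lower in the cKO. Of 12 measured of 15, 9 were at least 1.5-fold lower and 0 higher, beside 5.43% and 3.52% of all measured genes, and the median log2 ratio was -1.20. Wnt8b and Wnt3a, ligands of the hem, had 91 and 18 control reads against 52 and 7 cKO reads, or -0.86 (-1.38 to -0.36) and -1.36 (-2.92 to -0.09) on the log2 scale. Lmx1a, a LIM homeobox gene that marks the hem, had 33 and 14 reads, at -1.26 (-2.31 to -0.35). Rspo2, a Wnt agonist gene, had 77 and 33 reads, at -1.27 (-1.91 to -0.67).

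BMP ligands and a BMP target among the hem genes were also lower. Msx1, a BMP target, had 61 and 7 reads, 8.53-fold lower (4.14 to 23.5), and the ligands Bmp6 and Bmp7 had 48 and 140 control reads against 9 and 66 cKO reads, with log2 ratios at -2.41 (-3.68 to -1.43) and -1.14 (-1.59 to -0.71). Bmp5 had 16 and 6 reads, at -1.40 (-3.11 to -0.04) on the log2 scale, and Wnt2b had 51 and 33, at -0.68 (-1.36 to -0.02). Wnt5a, with 290 and 266 reads, was not beyond counting error at -0.18 (-0.43 to 0.06), and Rspo3, the member with most reads, was at -0.29 (-0.54 to -0.05).

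Most markers of choroid plexus, the neighbour of the hem, were near 0 in the cKO library. Its 10 markers summed to 790 CPM in the control and 12.2 in the cKO, and 8 of 8 measured were at least 1.5-fold lower, beside 5.43% of all measured genes. Ttr, the transthyretin gene, supplied 6025 of the 6773 control reads and had 12 in the cKO, so the sum rests mainly on it. The median log2 ratio was -5.21 (-5.05 with genes at 0 reads set to a floor of 3 reads, and -3.45 with a prior of 5 reads). Otx2, which other brain regions also express, kept 70 of 136 reads and supplied most of the 109 cKO reads, and Kl had 8 and 7. Kcnj13 and Calml4 had 0 reads in the cKO, and Kl and Kcnj13 are named after their values were seen. Choroid plexus also expresses some hem genes, and multiciliated cells there express Trp73. The part of choroid plexus in the lower values of Trp73 and of the hem genes was not tested, nor was the part of meningeal cells in those of the hem genes.

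Genes of the pallial septum and of the antihem, other sources of Cajal-Retzius cells, showed no common direction. Of 7 measured of 9, 1 was higher beyond counting error and 0 lower, beside 12.5% and 9.3% of all measured genes, with a median log2 ratio of 0.016 that turned to -0.019 under scaling by library total. Fgf17, named after its values were seen, had 34 and 22 reads, at least 1.5-fold lower but within counting error. The higher gene was Tgfa, a growth factor ligand of the antihem, with 181 and 272 reads, at 0.53 (0.25 to 0.81). Sfrp2, a secreted Wnt inhibitor of the antihem, had 232 and 244 reads, and Nrg3 had 186 and 225.

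Genes that act inside the cell after reelin binds differed little in size. Of 30 measured, 0 were at least 1.5-fold apart, beside 8.95% of all measured genes. Beyond counting error 7 were higher and 1 was lower, beside 12.5% and 9.3%, and the median log2 ratio was 0.05. The Dab1 kinases Fyn, Src and Yes1 (named after their values were seen) lay between 0.02 and 0.14, the 7 genes of the Crk and Rap1 branch between -0.05 and 0.07, and the 6 genes of Dab1 turnover between -0.10 and 0.16. Mapt, which encodes the microtubule protein tau, had 9381 and 11656 reads and the highest ratio of the 30, at 0.26 (0.22 to 0.30). Cfl1, the actin-severing protein cofilin, was at 0.10 (0.06 to 0.15), and Cdh2, the N-cadherin gene, at 0.07 (0.01 to 0.12).

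Outside the cell, the genes that touch reelin or its receptors leaned lower. Of 20 measured, 3 were at least 1.5-fold lower, beside 5.43% of all measured genes. Beyond counting error 7 were lower and 0 higher, beside 9.3% and 12.5%, and the median log2 ratio was -0.11. Clusterin (Clu) and selenoprotein P (Selenop), which also bind Lrp8 or Vldlr, had 469 and 377 control reads against 297 and 248 cKO reads, 1.64-fold (1.42 to 1.91) and 1.58-fold (1.34 to 1.86) lower. Both are also expressed in choroid plexus and border tissues, whose markers were lower in the cKO as given above, and the part of those tissues was not tested. Of 5 proteases that cleave reelin, 2 were lower beyond counting error and 0 higher, beside the same 9.3% and 12.5%, and the rest were not separated. The lower ones were Adamts4 at -0.53 (-0.997 to -0.08) and Plat at -0.32 (-0.62 to -0.02), whose call held under 3 of 4 scalings. Adamts3 was at 0.01 (-0.16 to 0.18). Adamts4, Plat and Adamts3 are named after their values were seen. The coreceptor genes Efnb2, Nrp1 and Efnb3 were at -0.16 (-0.24 to -0.08), 0.03 (-0.07 to 0.13) and 0.08 (-0.02 to 0.19).

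**Figure D5:**
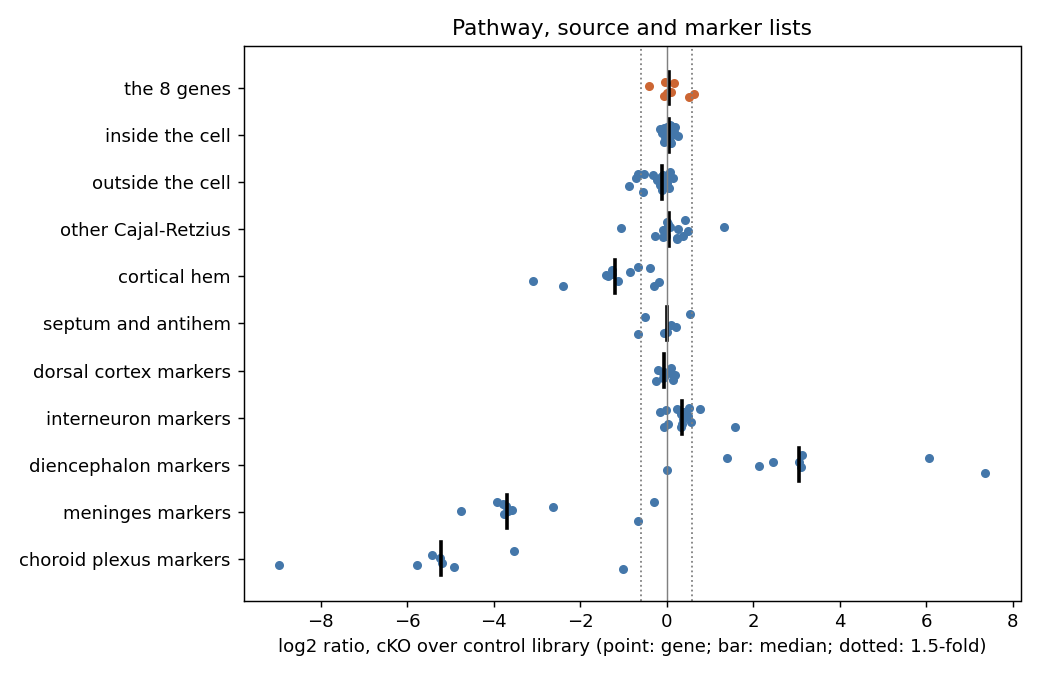
Log2 ratio of cKO over control for the measured genes of each list (points), with the median as a black bar and dotted lines at 1.5-fold; genes at 0 reads in 1 library, such as Shox2 and Calml4, are placed by the prior of 0.5 read. Genes inside the cell cluster at 0.05, hem genes have a median of -1.20, and meningeal and choroid plexus markers lie further left, while diencephalic markers lie to the right.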

How the data were processed

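Per the file headers, the deposited table gives raw read counts per gene for each genotype. The authors also deposited CPM values (a count of 0 entered as 0.5 read), their ratio as a fold of control over knockout, its log2 value, and p-values with adjusted p-values from a test that the sources used here do not name. Per the submitters' processing notes, the tools were Bowtie2 2.2.3, TopHat2 2.0.12 and HTSeq 0.6.0, and the build mm9. However, 78.9% of gene positions are identical to GENCODE M21 on GRCm38 and 99.3% overlap the same gene, so coordinates are given as GRCm38. The sources used here state neither the strand setting nor the handling of multiply matching reads. Symbols matched 19616 of 19720 gene identifiers.

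Counts were scaled by TMM (edgeR 4.0.16, R 4.3.3). The log2 ratio used a prior of 0.5 read, and intervals are exact Clopper-Pearson. A call of 1.5-fold was applied to genes with at least 20 reads in both libraries together. The calculation was tested on simulated counts. Within-library ratios carry exact conditional intervals (scipy 1.17.1, Python 3.11.15). Levels per kilobase use merged exons. Alternatives were scaling by library total, DESeq2 1.42.0 size factors or upper quartile, priors of 1 and 5 reads, no minimum, a minimum of 100 reads, and 2-fold. Named genes are the 8 members, list members at least 1.5-fold apart and beyond counting error, up to 3 with most reads per list, and overlapping gene models; others are marked where they appear, and 1 marker gene is not reported by name here. No likeness of pattern was measured, since 2 libraries give 1 ratio per gene. The members and the lists were chosen with earlier results of these data known. Intervals cover counting error only and not differences between animals.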

Additional observations from a re-analysis of the deposited data

How the results depend on the processing

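All values rest on 1 library per genotype, so no replicate could be left out. No paired analysis was possible because each genotype has 1 library. Log2 ratios of the 8 genes and Ebf1 stayed inside their main counting intervals in all 45 combinations tried. Ebf3 ran from 0.47 to 0.53, Ebf2 from 0.59 to 0.66 and Trp73 from -0.44 to -0.38. These 3 were beyond counting error under each of 4 scalings, and the prior does not enter the counting interval. Scaling by library total raised the number of the 8 genes beyond counting error from 3 to 5 by adding Lrp8 and Dab1. A 2-fold limit lowered the number apart from 1 to 0. The septum and antihem median was -0.019 by library total and 0.16 with a minimum of 100 reads. That minimum put the diencephalic median at 1.38 and the hem median at -0.86, and a prior of 5 reads put the diencephalic, choroid plexus and meningeal medians at 1.89, -3.45 and -2.97. Ebf2, with 131 reads, is the member that depth limits most.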

Other observations

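Genes of the parallel pathway for cortical layering, in which the kinase Cdk5 and microtubule proteins act beside reelin, were in most cases a little higher in the cKO library. Of 9 measured, 6 were higher beyond counting error and 1 lower, beside 12.5% and 9.3% of all measured genes, and 1 was at least 1.5-fold apart, beside 8.95%. These shares are not matched for the read depth of the 9 genes. The lower gene was Cdk5 itself, named after its values were seen, with 556 and 503 reads, at -0.20 (-0.38 to -0.02) on the log2 scale. The gene at least 1.5-fold apart was Cdk5r2, an activator of Cdk5, with 274 reads in the control and 483 in the cKO, 1.69-fold higher (1.46 to 1.97). Dcx, the doublecortin gene of migrating neurons, had 16841 and 18638 reads, at 0.09 (0.06 to 0.12) on the log2 scale. Tuba1a, a neuronal tubulin gene, was at 0.16 (0.13 to 0.19) and Dclk1 at 0.19 (0.13 to 0.24).

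Relatives of the 8 genes are given by family. Of 14 genes of the LDL receptor family, 0 were at least 1.5-fold apart, beside 8.95% of all measured genes, and Lrp1 and Lrp3, with most reads beside Lrp8, were both at 0.04. Dab2, the relative of Dab1 found in endothelium, macrophages and epithelia, had 224 and 79 reads, 2.94-fold lower (2.27 to 3.86), whereas Dab1 was level. Trp53, with 1093 and 1073 reads, was at -0.08 (-0.21 to 0.04) beside the lower Trp73. The calretinin relatives Calb1 and Scgn, which encode calbindin and secretagogin, had 177 and 10 control reads against 233 and 28 cKO reads, or 0.34 (0.05 to 0.63) and 1.38 (0.34 to 2.64) on the log2 scale. The part of other cell types in these values was not tested.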
